A study of Mus musculus with 6 samples.

Results

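The digestive enzymes and nutrient transporters of the brush border, the carpet of microvilli on intestinal epithelial cells, were followed in RNA from immune cells sorted from the muscle layer of the mouse small bowel. The genes are Lct, Sis, Mgam, Anpep, Alpi, Slc5a1, Slc15a1, Slc2a2 and Slc2a5, chosen by name, and all 9 were found among the 26110 genes listed. Bulk RNA-seq compared MHCII hiCX3CR1- with MHCII hiCX3CR1+ cells, with 3 libraries of each, to ask how the transcriptomes of these populations differ. Both populations were sorted from the muscularis externa (ME) of untreated female CX3CR1 GFP/+ mice on a C57BL/6 background, in which GFP replaces 1 of the 2 copies of Cx3cr1 and marks the cells that use its promoter. The ME of several mice was pooled per group, the animals' age was not given in the sources used here, and whether each library had a pool of its own was not stated. The p-values below therefore measure the spread between libraries, which may be technical. The sample labels call the cells dendritic cells, whereas the study calls them macrophages. By flow cytometry the study found CD11b on most CX3CR1- cells, and CD11c and the dendritic cell marker CD103 on very few. By staining it found the macrophage marker IBA-1 on all MHCII+ cells.

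Enterocytes finish digestion at their apical membrane, where anchored enzymes cut sugars and peptides, and carriers beside them take up the products. Lactase, sucrase-isomaltase and maltase-glucoamylase split sugars, aminopeptidase N trims peptides and intestinal alkaline phosphatase removes phosphate groups. Slc5a1 imports glucose with sodium, Slc15a1 imports short peptides with protons, Slc2a5 imports fructose, and Slc2a2 passes sugars on through the basolateral membrane. The ME lies outside the epithelium and holds smooth muscle, enteric neurons and resident immune cells.

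The values are read numbers estimated per gene and normalized between libraries, without unit. CX3CR1- replicates 1, 2 and 3 held about 11927368, 6517535 and 11331837 reads, and CX3CR1+ replicates 1, 2 and 3 held about 17616748, 10014168 and 5346379. The normalized level of 3 reads, below which a gene was treated as not measurable, lay at 3.13, 5.36 and 2.99 in the CX3CR1- and at 1.39, 2.46 and 4.25 in the CX3CR1+ libraries, and it covers counting error only. A gene was tested when its mean over the 6 libraries was at least 10, and called higher or lower in CX3CR1- cells when the size of its log2 fold change reached 1 and its adjusted p did not exceed 0.05 (limma, Benjamini-Hochberg over 17812 tested genes).

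Of the 9 brush border genes, 8 were tested, 7 were called higher in CX3CR1- cells and 0 were called lower. At an unadjusted p of at most 0.05 limma found 8 higher and 0 lower, and over all genes 6304 of 17812 reached this p in either direction. Among all tested genes, 12.2% (2177 genes) were called higher and 8.15% (1451 genes) were called lower. These counts became 1747 and 1731 after quantile normalization, and 2521 and 1113 after scaling to the total without mitochondrial genes. In 7 of the 8 tested genes every CX3CR1- library lay above every CX3CR1+ library, which held for 20.3% of all tested genes. The untested Slc2a5 showed the same order, but was at or under the level of 3 reads in 5 of the 6 libraries. Of the 8 tested genes, 6 had a mean under 10 in the CX3CR1+ libraries and were tested only because of their level in CX3CR1- cells, a choice that by itself favours a difference. Among all tested genes with such a low CX3CR1+ mean, 49.4% were called higher. The remaining 2 genes, Anpep and Slc15a1, were measurable in all 6 libraries. In sorted bulk samples, fewer cells of a type and less RNA per cell cannot be told apart.

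Lct encodes lactase, the enzyme that splits milk sugar. Its normalized value was 91.0, 90.7 and 24.5 in CX3CR1- replicates 1, 2 and 3, and 0, 1.49 and 0 in CX3CR1+ replicates 1, 2 and 3. The CX3CR1- libraries were all higher, replicate 3 well below replicates 1 and 2, and no CX3CR1+ library rose above the level of 3 reads. The mean was at least 25.5-fold higher in CX3CR1- cells, taken against the mean level of 3 reads in the CX3CR1+ libraries. The fitted log2 fold change was 5.47 (standard error 0.77, limma, adjusted p = 0.000614), a value that depends on the pseudocount, and it became 6.08 without CX3CR1- replicate 3.

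Sis encodes sucrase-isomaltase, which splits sucrose and the branch points of starch fragments. Its value was 121, 98.0 and 66.8 in the CX3CR1- libraries, and 5.79, 3.42 and 0 in the CX3CR1+ libraries. The groups did not overlap, and CX3CR1+ replicates 1 and 2 lay above their levels of 3 reads. The CX3CR1- mean was 31.03 times the CX3CR1+ mean, with a fitted log2 fold change of 4.91 (standard error 0.71, limma, adjusted p = 0.000694), or 4.09 without CX3CR1+ replicate 3, in which no read was found.

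Mgam encodes maltase-glucoamylase, which releases glucose from maltose and short starch chains. Its value was 619, 626 and 298 in the CX3CR1- libraries, and 3.00, 2.14 and 18.7 in the CX3CR1+ libraries. CX3CR1- replicate 3 was again the lowest of its group, and CX3CR1+ replicate 3, although the shallowest library, was the highest of its group. The CX3CR1- mean was 64.8 times the CX3CR1+ mean, with a fitted log2 fold change of 6.28 (standard error 0.64, limma, adjusted p = 7.57e-05). Without CX3CR1+ replicate 3 it was 7.11.

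Anpep encodes aminopeptidase N, which removes single amino acids from the start of peptides and is known outside the gut as the myeloid surface protein CD13. Its value was 1483, 2564 and 1607 in the CX3CR1- libraries, and 91.4, 71.6 and 83.3 in the CX3CR1+ libraries. Both groups were far above the level of 3 reads, the CX3CR1+ libraries lay close together, and here CX3CR1- replicate 2 stood out as the highest. The mean was 1885 ± 592 in CX3CR1- and 82.1 ± 9.98 in CX3CR1+ cells (mean ± SD, n = 3 each), a ratio of 23.0. The log2 fold change was 4.47 (standard error 0.24, limma, adjusted p = 2.98e-06).

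Alpi encodes intestinal alkaline phosphatase, an enzyme of mature enterocytes that also removes phosphate from bacterial lipopolysaccharide. Its value was 261, 252 and 89.7 in the CX3CR1- libraries, and 0 in each of the 3 CX3CR1+ libraries. CX3CR1- replicate 3 was the lowest of its group and still far above the CX3CR1+ libraries. The mean was at least 74.4-fold higher in CX3CR1- cells (fitted log2 fold change 7.51, standard error 0.59, limma, adjusted p = 1.7e-05). Of the 31-mers of Alpi, 7.07% also occur in another gene, and 3.47% occur in Akp3, which lies beside it on chromosome 1, so that a small part of its reads could belong there.

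Slc5a1 encodes the sodium-coupled glucose carrier SGLT1. Its value was 149, 169.9 and 106 in the CX3CR1- libraries, and 0 in each of the 3 CX3CR1+ libraries. The CX3CR1- libraries were all clearly above the level of 3 reads and nearer to each other than for Alpi. The mean was at least 52.5-fold higher in CX3CR1- cells (fitted log2 fold change 7.13, standard error 0.55, limma, adjusted p = 1.46e-05).

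Slc15a1 encodes PEPT1, the proton-coupled carrier of dipeptides and tripeptides. Its value was 83.5, 91.2 and 67.8 in the CX3CR1- libraries, and 14.3, 15.6 and 15.6 in the CX3CR1+ libraries. The groups were well apart, and both were tight. The mean was 80.8 ± 11.9 in CX3CR1- and 15.2 ± 0.719 in CX3CR1+ cells (mean ± SD, n = 3 each), a ratio of 5.33, with a log2 fold change of 2.33 (standard error 0.34, limma, adjusted p = 0.000747). This was the smallest ratio among the 7 genes called, and the CX3CR1+ libraries held this transcript at a measurable level.

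Slc2a2 encodes GLUT2, the sugar carrier of the basolateral membrane, which is also used by hepatocytes and pancreatic beta cells. Its value was 63.0, 51.7 and 6.78 in the CX3CR1- libraries, and 3.93, 0.697 and 9.57 in the CX3CR1+ libraries. CX3CR1- replicates 1 and 2 were high, whereas CX3CR1- replicate 3 was lower than CX3CR1+ replicate 3, so that the groups overlapped. The log2 fold change of 2.74 (standard error 0.95) did not pass the threshold (limma, adjusted p = 0.0618). Without CX3CR1- replicate 3 it was 3.70 (limma, adjusted p = 0.0119), and over all alternatives the adjusted p ranged from 0.0119 to 0.354.

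Slc2a5 encodes GLUT5, the fructose carrier of the apical membrane. Its value was 6.46, 2.77 and 1.34 in the CX3CR1- libraries, and 0.716, 0 and 0 in the CX3CR1+ libraries. Only CX3CR1- replicate 1 lay above its level of 3 reads, the mean over the 6 libraries was too low for the test, and no fold is given. The exact two-sided permutation test over the 6 libraries, whose smallest p for 3 against 3 is 0.1, gave 0.1 for each of the 8 genes without overlap and 0.2 for Slc2a2.

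**Figure D1:**
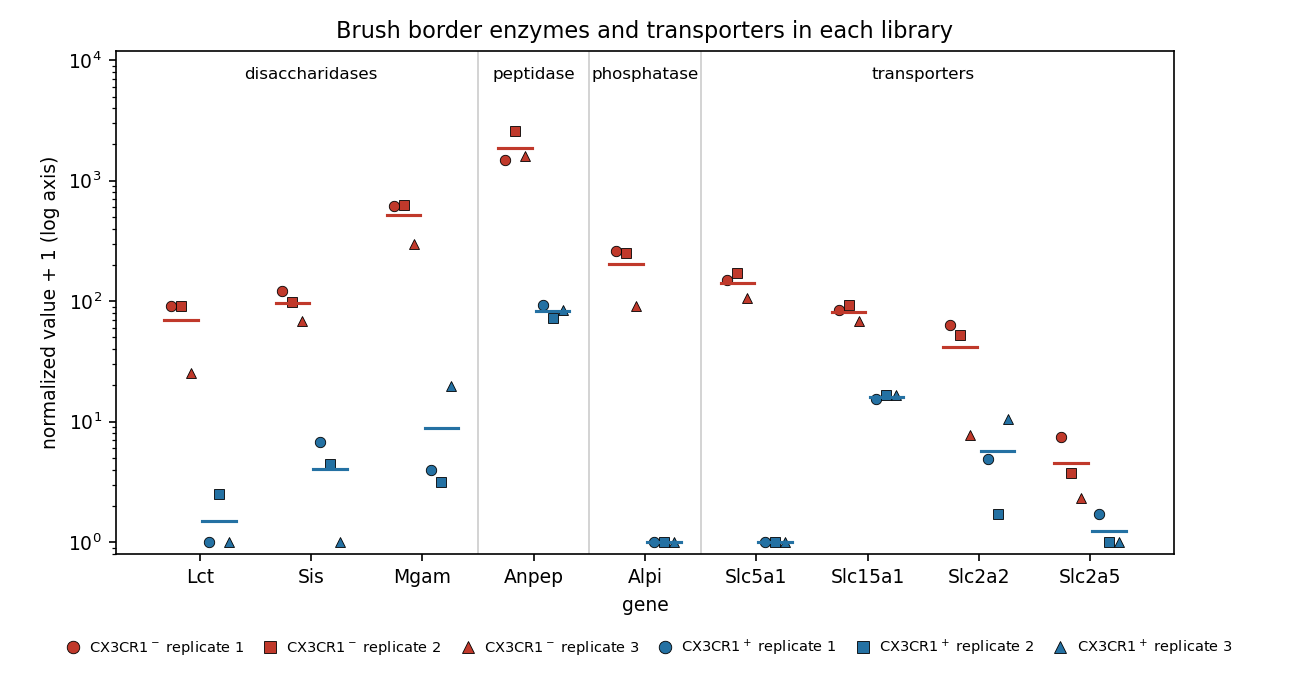
Normalized value plus 1 of the 9 brush border genes in each of the 6 libraries, on a log axis, grouped by role; each point is a library, and each bar is the mean of the 3 libraries of a population. The CX3CR1- points lie above the CX3CR1+ points for every gene but Slc2a2, and Alpi and Slc5a1 were at 0 in all 3 CX3CR1+ libraries.

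Levels of different genes were compared per kilobase of the longest coding transcript. In CX3CR1- cells, Anpep had the highest level per kilobase at 496 ± 156 (SD, n = 3), followed by Alpi at 86.0 ± 41.2 (SD, n = 3) and Mgam at 79.3 ± 28.9 (SD, n = 3). Anpep stood clear of the rest, whereas Alpi and Mgam did not differ beyond their spread. Slc5a1 at 34.5 ± 7.98 (SD, n = 3) and Slc15a1 at 25.9 ± 3.82 (SD, n = 3) came next, with overlapping spreads. Sis at 16.01 ± 4.57 and Lct at 11.1 ± 6.21 (SD, n = 3 each) also overlapped, and so did Lct and Slc2a2 at 7.27 ± 5.34 (SD, n = 3). Slc2a5 came last at 1.12 ± 0.837 (SD, n = 3).

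The genes varied unequally among the CX3CR1- libraries. CX3CR1- replicate 3 was the lowest of its group for each of the 8 tested genes except Anpep. Its value relative to the mean of CX3CR1- replicates 1 and 2 was 0.118 for Slc2a2, 0.269 for Lct, 0.350 for Alpi and 0.479 for Mgam. For Sis, Slc5a1, Slc15a1 and Anpep the same ratio was 0.610, 0.662, 0.776 and 0.794, whereas Slc2a5 was not measurable in replicates 2 and 3. Replicate 3 was furthest below the others for Slc2a2 and nearest to them for Anpep and Slc15a1. The summed markers of epithelial cells had a ratio of 0.591 in the same comparison. Set against the epithelial cytoskeleton gene Vil1 in the same library, Lct was at 0.0482, 0.0706 and 0.0193 of its value in CX3CR1- replicates 1, 2 and 3. Against Epcam, Lct was at 0.304, 0.368 and 0.0863. Slc15a1 was at 0.0443, 0.0710 and 0.0536 of the value of Vil1, and at 0.279, 0.370 and 0.239 of that of Epcam. Against Fabp2, Lct was at 0.00430, 0.00432 and 0.00195, and Slc15a1 at 0.00395, 0.00434 and 0.00540. Lct was thus lowest in replicate 3 relative to each of these genes, whereas the order for Slc15a1 depended on the gene it was set against.

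Together the 9 genes took 0.0231%, 0.0339% and 0.0201% of the normalized total in CX3CR1- replicates 1, 2 and 3, and 0.00146%, 0.00116% and 0.00168% in CX3CR1+ replicates 1, 2 and 3. The groups were far apart, with a ratio of the means of 17.9. No p is given for this sum, since the genes were chosen with results known. Anpep alone held 62.5 ± 9.90% (SD, n = 3) of the sum in CX3CR1- cells, and without it the ratio was 24.0. Genes encoded by mitochondria took up 51.7 ± 3.76% of the CX3CR1- and 19.6 ± 1.55% of the CX3CR1+ total (mean ± SD, n = 3 each). As a share of the remaining total, the ratio was 29.6. The part of the mitochondrial share in these results was not tested, and the median over all tested genes, -0.00 on the log2 scale, became 0.17 after scaling to the non-mitochondrial total and -0.16 after quantile normalization.

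The other hydrolases of the brush border numbered 16 in the data, of which 14 were tested, 12 were called higher and 0 were called lower. At an unadjusted p of at most 0.05 limma found 12 higher and 0 lower, and 9 of the 14 had a CX3CR1+ mean under 10. The median log2 fold change of the tested hydrolases was 5.19, or 4.24 with genes at the CX3CR1+ floor set to their bound, against -0.00 for all tested genes. Mep1a, a subunit of the metalloprotease meprin, was at 34.1, 102 and 36.3 against 0.318, 0 and 0, and Akp3, another intestinal alkaline phosphatase, was at 68.9, 10.7 and 55.8 against 0, 0.820 and 0. Both passed the test (limma, adjusted p = 0.000442 for Mep1a and 0.00297 for Akp3), and for both no CX3CR1+ library rose above the level of 3 reads. Akp3 was lowest in CX3CR1- replicate 2, where its neighbour Alpi was high.

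Some of these hydrolases are not particular to enterocytes. Dpp4, a peptidase that cuts dipeptides from the start of longer peptides and is also on the list of dendritic cell markers, was at 551, 429 and 427 in the CX3CR1- and at 29.6, 27.5 and 35.6 in the CX3CR1+ libraries. Its log2 fold change was 3.88 (limma, adjusted p = 6.27e-06). Mme, or neprilysin, was at 301, 640.5 and 158 against 20.9, 28.3 and 33.5, and Enpep, or aminopeptidase A, at 139.8, 110.2 and 278 against 11.4, 16.7 and 13.4. Both were present in every library and higher in every CX3CR1- library, with log2 fold changes of 3.48 and 3.48 (limma, adjusted p = 0.000386 and 0.000171). Enpep was highest in CX3CR1- replicate 3, where most brush border genes were lowest. Treh, which splits trehalose, was at 12.6, 17.3 and 9.81 against 0, 1.32 and 4.57 and too low for the test.

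Among 29 other apical carriers of nutrients and ions, 24 were tested, 11 were called higher and 1 was called lower, and the median log2 fold change was 1.84. Of the 11, 10 had a CX3CR1+ mean under 10. The number called higher was 1 with a mean of at least 50, and ranged from 8 to 14 over the other settings run. Npc1l1, through which enterocytes take up cholesterol, had the smallest adjusted p, with 161, 131 and 129.6 in the CX3CR1- and 1.85, 0 and 0 in the CX3CR1+ libraries. Its CX3CR1- values were even, and its CX3CR1+ values were close to 0 (log2 fold change 6.63, limma, adjusted p = 3.33e-05). Slc6a19, the main carrier of neutral amino acids, was at 54.8, 44.1 and 28.2 against 0 in all CX3CR1+ libraries, at least 15.7-fold higher (limma, adjusted p = 0.000519). Slc3a1 and Slc7a9, the 2 subunits of the cystine carrier, were too low for the test, with 13.6, 8.94 and 1.99 and 16.7, 12.5 and 27.9 in the CX3CR1- libraries. Slc7a9 was 0 in every CX3CR1+ library, and Slc3a1 was under the level of 3 reads there. Of the 31-mers of Slc3a1, 25.5% also occur in Prepl.

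Other apical carriers were not called. Slc28a2, which imports nucleosides, was at 581, 458 and 311 against 368, 437 and 366, with overlapping groups (log2 fold change 0.16, limma, adjusted p = 0.681). Slc10a2, the bile acid carrier of the ileum, was at 31.3, 48.3 and 46.9 against 20.4, 33.6 and 25.5, also with overlapping groups (limma, adjusted p = 0.258). Slc9a3, the sodium and proton exchanger, was at 102, 3.57 and 20.6 against 4.502, 2.19 and 0 (limma, adjusted p = 0.0827), with overlapping groups and a CX3CR1- mean that came mostly from replicate 1. Slc26a3, the chloride and bicarbonate exchanger, was at 28.6, 42.3 and 28.7 against 16.8, 13.2 and 20.2, which did not overlap but missed the threshold (limma, adjusted p = 0.135). Slc26a6, a relative of it, was at 12.7, 156 and 33.1 against 9.07, 8.30 and 5.23, also without overlap and with most of its CX3CR1- mean from replicate 2 (limma, adjusted p = 0.0575). The carrier called lower was Slc11a2, the iron importer that macrophages also use, with 324, 327 and 555 in the CX3CR1- and 2136, 3336 and 2428 in the CX3CR1+ libraries. It was the reverse of the brush border genes in every library, with a log2 fold change of -2.73 (limma, adjusted p = 3.97e-05).

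The exporters of the basolateral membrane went both ways. Of 13 in the data, 12 were tested, 4 were called higher and 3 were called lower, with a median log2 fold change of -0.10. Of the 12, 3 had a CX3CR1+ mean under 10, and of the 4 called higher, 2 had a CX3CR1+ mean of 10 or more. Slc51b, a subunit of the bile acid exporter, was at 186, 191 and 133 against 0.463, 0 and 0, at least 62.9-fold higher (limma, adjusted p = 1.02e-05). Its partner Slc51a was at 16.7, 39.3 and 29.9 against 1.85, 9.02 and 9.92, higher in every CX3CR1- library but just past the threshold (limma, adjusted p = 0.05001), so that its call can turn with the settings. Of its 31-mers, 16.8% also occur in Pcyt1a. Over all settings the number of exporters called higher ranged from 2 to 5. Abcc3, an exporter of conjugates, was at 97.5, 159 and 91.8 against 501, 498 and 488 and called lower (log2 fold change -2.13, limma, adjusted p = 0.000194). Slc7a7, which exports basic amino acids and is also used by macrophages, was at 109, 76.8 and 183 against 206, 241 and 209.5 and missed the threshold (limma, adjusted p = 0.0613).

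Relatives of the 9 genes that work outside the brush border mostly did not move with them. Of 24 in the data, 20 were tested, 1 was called higher and 1 was called lower, and the median log2 fold change was -0.42. Of the 20, 1 had a CX3CR1+ mean under 10, against 6 of the 8 tested brush border genes. The choice of tested genes, which favours a difference where this mean is low, thus bears less on the relatives. Of the glucose carriers, Slc2a1 was at 274, 292 and 378 against 467, 615 and 547, lower in every CX3CR1- library with a log2 fold change of -0.79 that was too small for a call (limma, adjusted p = 0.0194). Slc2a3 was at 185, 109 and 314 against 142, 142 and 188, with overlapping groups (limma, adjusted p = 0.675). Slc2a6, a carrier of leukocytes, was the gene called higher, with 201, 248 and 229 against 37.5, 74.5 and 86.9 (log2 fold change 1.83, limma, adjusted p = 0.00263). Alpl, the phosphatase of bone, liver and kidney, was at 7.21, 27.6 and 11.8 against 0, 0.515 and 0 and too low for the test, although every CX3CR1- library lay above every CX3CR1+ library. Among the relatives of the peptide carrier, the lysosomal Slc15a3 was called lower, with 525, 248 and 403 in the CX3CR1- and 1833, 2947 and 2039.6 in the CX3CR1+ libraries (log2 fold change -2.57, limma, adjusted p = 0.000125). Slc15a2 at 365, 469 and 325 against 439.9, 653 and 636 and Slc15a4 at 106, 232 and 162 against 256, 280.0 and 218 did not pass (limma, adjusted p = 0.0989 and 0.143). Slc15a1 and Slc15a3 thus moved in opposite directions, although 27.6% of the 31-mers of Slc15a3 also occur in another gene, 27.3% in Tmem132a.

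Transcripts of proteins that build the microvillus were higher in CX3CR1- cells together with those of the enzymes. All 14 genes of the microvillus scaffold were tested, every CX3CR1- library lay above every CX3CR1+ library for all 14, 13 were called higher and 0 were called lower. At an unadjusted p of at most 0.05 limma found 14 higher and 0 lower. Their median log2 fold change was 5.71, or 4.82 with genes at the CX3CR1+ floor set to their bound, and 10 of the 14 had a CX3CR1+ mean under 10. Vil1, which bundles actin in microvilli, was at 1886, 1285 and 1265 in the CX3CR1- and at 24.1, 14.5 and 13.2 in the CX3CR1+ libraries (log2 fold change 6.36, limma, adjusted p = 1.45e-06). The gene that was not called was Eps8, whose log2 fold change of 0.96 was just too small (limma, adjusted p = 0.00418).

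Transcription factors of the enterocyte programme numbered 19, of which 13 were tested, 11 were called higher and 0 were called lower. At an unadjusted p of at most 0.05 limma found 12 higher and 0 lower. The median log2 fold change was 4.48, or 4.36 with genes at the CX3CR1+ floor set to their bound, and 9 of the 13 had a CX3CR1+ mean under 10. Hnf4a, a nuclear receptor that drives many enterocyte genes, was at 652, 391.6 and 195 against 0, 0 and 4.25. Its relative Hnf4g was at 305, 255 and 170.1 against 0.457, 0 and 1.47. For both, CX3CR1- replicate 3 was the lowest of its group, as for Lct, Sis, Mgam and Alpi (log2 fold changes 7.73 and 7.28, limma, adjusted p = 3.89e-05 and 9.27e-06). Cdx2, an intestinal homeobox factor, was at 111, 12.5 and 22.9 against 0.925, 0 and 0 (limma, adjusted p = 0.00472), with most of its CX3CR1- mean from replicate 1. Klf5, a factor of crypt and other epithelia, had the smallest adjusted p and was even over the CX3CR1- libraries, with 249.5, 233 and 257 against 2.29, 3.39 and 5.60 (limma, adjusted p = 7.09e-06). Cdx1, with 30.3, 5.36 and 14.0 against 0 in all CX3CR1+ libraries, was too low for the test. Gata4, a factor of the upper small intestine, was at 84.5, 25.0 and 26.3 against 26.5, 14.5 and 12.5, with overlapping groups (limma, adjusted p = 0.173).

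**Figure D2:**
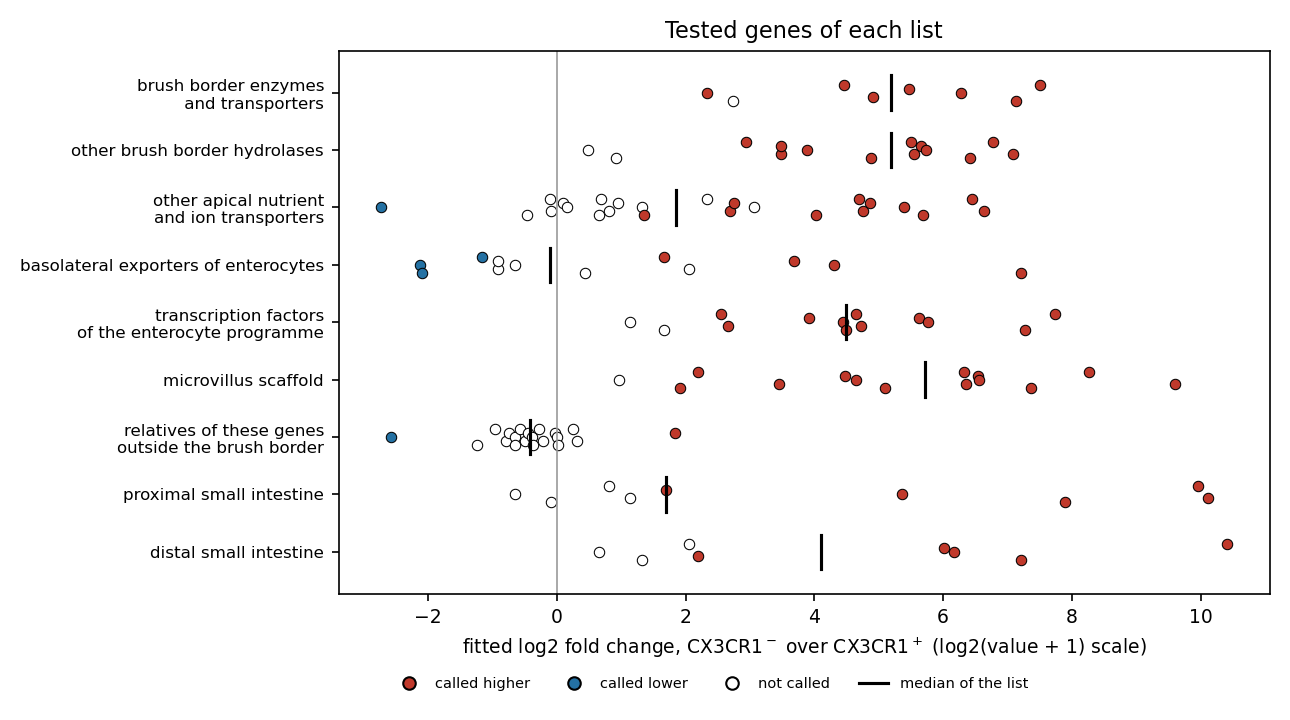
Fitted log2 fold change between CX3CR1- and CX3CR1+ cells for the tested genes of each list, on the log2(value + 1) scale; each point is a gene, filled where it was called, and the bar is the median of the list. The brush border, hydrolase, transcription factor and microvillus lists lie to the right with medians from 4.48 to 5.71, whereas the relatives outside the brush border centre on -0.42. In that order, 6 of 8, 9 of 14, 9 of 13, 10 of 14 and 1 of 20 tested genes had a CX3CR1+ mean under 10.

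Genes of the upper and the lower small intestine were both present. Of 9 genes of the upper part, all tested, 5 were called higher and 0 lower, and of 9 genes of the lower part, 8 were tested, 5 were called higher and 0 lower. At an unadjusted p of at most 0.05 limma found 5 higher and 0 lower in the upper and 6 higher and 0 lower in the lower part. A CX3CR1+ mean under 10 was found for 4 of the 9 tested genes of the upper and for 6 of the 8 of the lower part, and each of the 5 genes of the lower part that were called was among the latter. The median log2 fold change was 1.70 for the upper and 4.10 for the lower part, or 3.46 for the latter with genes at the CX3CR1+ floor set to their bound. Fabp1, a fatty acid binding protein of the upper part, reached 3525, 1702 and 991 in the CX3CR1- libraries, and Fabp6, which binds bile acids in the ileum, was at 1278, 7408 and 3719.6. Fabp1 was highest in CX3CR1- replicate 1 and Fabp6 in CX3CR1- replicate 2. Osr2, another gene of the lower part, was at 98.8, 59.5 and 56.3 and did not follow Fabp6. Neither Fabp1 nor Fabp6 rose above the level of 3 reads in a CX3CR1+ library. Both had small adjusted p-values (limma, 1.91e-06 for Fabp1 and 6.59e-06 for Fabp6). Not all genes of the upper part went with Fabp1. Slc40a1 was lower in every CX3CR1- library, with 54.2, 68.6 and 48.4 against 77.2, 116 and 79.1, and was not called (limma, adjusted p = 0.158). Slc46a1, Cybrd1 and Gata4 had overlapping groups and were not called.

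Of the genes of the sort, Cx3cr1 separated the populations as labelled. Cx3cr1 was at 23.2, 18.9 and 28.5 in the CX3CR1- and at 371, 380.4 and 347 in the CX3CR1+ libraries (log2 fold change -3.92, limma, adjusted p = 7.72e-06). Ptprc, which encodes the leukocyte antigen CD45, was at 3826, 4526 and 2860.4 against 4198, 3897 and 4579, with overlapping groups (limma, adjusted p = 0.472). The MHC class II gene H2-Aa was abundant in both, with 22522, 25584 and 21086 against 48796, 46152 and 43468 (log2 fold change -1.003, limma, adjusted p = 0.000243). Both populations thus carried leukocyte and MHC class II transcripts at a high level.

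Markers of epithelial cells moved with the brush border genes. Of 14 in the data, 13 were tested, and all 13 were called higher in CX3CR1- cells, 12 of them with a CX3CR1+ mean under 10. Their summed value was 30426, 27738 and 17185 in CX3CR1- replicates 1, 2 and 3, and 42.7, 19.2 and 38.5 in CX3CR1+ replicates 1, 2 and 3. Here and in the lists below, 1 marker is named as having the largest mean normalized value over the 6 libraries, which is not corrected for length and does not rank the genes. It was Fabp2, the intestinal fatty acid binding protein, with 21161, 21000.5 and 12559 against 9.25, 0.820 and 2.83 (log2 fold change 12.06, limma, adjusted p = 1.45e-06). Epcam, a surface protein of all gut epithelia, was at 299.5, 247 and 283 against 0, 2.46 and 0 (limma, adjusted p = 1.28e-05). In the CX3CR1+ libraries Apoa4 and Cldn3 were at 0 in every library, and Krt8 and Krt20 were not above the level of 3 reads. Epithelial transcripts were thus plentiful in each CX3CR1- library and near 0 in CX3CR1+ cells. The sum was lowest in CX3CR1- replicate 3, and so were Fabp2, Krt20, Krt19, Rbp2, Apoa1, Apoa4, Lgals4, Tspan8, Cldn3 and Cldn7, whereas Epcam, Krt18 and Krt8, the last with 637, 427 and 434, were lowest in CX3CR1- replicate 2, and Cdh1, with 63.2, 135 and 126, in CX3CR1- replicate 1. Their part in the result was not tested.

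Markers of other cells of the mucosa were higher in CX3CR1- cells to different degrees. Of 8 goblet cell markers, 7 were tested and all 7 were called higher, each with a CX3CR1+ mean under 10, with sums of 6902, 3997 and 2723 in the CX3CR1- and 19.9, 28.2 and 13.1 in the CX3CR1+ libraries. Muc2, the main mucin, had the largest mean value, with 2268, 1111 and 951 against 5.18, 0.663 and 7.63, and Agr2, Tff3, Spdef and Clca1 were at 0 in every CX3CR1+ library. Of 6 Paneth cell markers, of which 5 had a CX3CR1+ mean under 10, 3 were called higher, with sums of 3459, 4982 and 2380.3 against 31.9, 50.04 and 17.0. Lyz1 had the largest mean value, with 3419, 4921 and 1953 against 31.9, 50.04 and 17.0, and the other 5, Itln1, Ang4 and the defensins Defa17, Defa24 and Defa30, were at 0 in every CX3CR1+ library. Each of these 5 was highest in CX3CR1- replicate 3, and Defa17, Defa24 and Ang4, at 0 in CX3CR1- replicate 1, were not called. The study lists Lys1, by which it may mean Lyz1, as a marker of monocytes and macrophages that was higher in CX3CR1- cells. Of 8 markers of B and plasma cells, of which 4 had a CX3CR1+ mean under 10, 7 were called higher, with sums of 9593, 27187 and 3948 against 494, 399.6 and 518. Igha, the heavy chain of IgA, had the largest mean value, with 7653, 22680.5 and 1604 against 2.33, 0 and 1.43, and Mzb1 was at 0 in every CX3CR1+ library. The goblet sums ordered the CX3CR1- libraries 1, 2, 3 from high to low. The B cell sum and the Paneth sum, which is mostly Lyz1, were highest in replicate 2. The part of these cells in the result was not tested.

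Transcripts of pancreatic acinar cells differed strongly between libraries of the same group. All 8 markers were called higher in CX3CR1- cells, but only 4 of them without overlap of the groups. The sums were 2248, 26737 and 12527 in CX3CR1- replicates 1, 2 and 3, and 19.4, 1752 and 131 in CX3CR1+ replicates 1, 2 and 3. Ctrb1, a chymotrypsinogen, had the largest mean value, with 475, 8918 and 3575 against 3.70, 588 and 22.7, and none of the 8 was at 0 in every CX3CR1+ library. CX3CR1- replicate 2 and CX3CR1+ replicate 2 held the most acinar transcripts of their group. The part of these transcripts in the result was not tested.

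Smooth muscle markers were at a similar level in most libraries. Of 7 smooth muscle markers, 1 was called higher and 0 lower, the same as limma found at an unadjusted p of at most 0.05, with sums of 2772, 997 and 2655 in the CX3CR1- and 2000.3, 2795 and 2289.7 in the CX3CR1+ libraries. Acta2, smooth muscle actin, had the largest mean value, with 548, 250.3 and 663 against 446, 746 and 552, and no marker was at 0 in every CX3CR1+ library. All 7 fibroblast markers were called higher in CX3CR1- cells, with sums of 7245, 4144 and 12225 against 319.6, 248 and 187. Dcn, or decorin, had the largest mean value, with 2389, 1582 and 4141 against 135, 88.4 and 52.8, and no marker was at 0 in every CX3CR1+ library. The fibroblast sum was highest in CX3CR1- replicate 3, where the epithelial and brush border sums were lowest.

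Markers of dendritic cells and macrophages moved in opposite directions. All 8 markers of conventional dendritic cells were called higher in CX3CR1- cells, with sums of 3563, 4047 and 3746 against 211, 227 and 281. Clec9a had the largest mean value, with 894, 1193 and 956 against 70.1, 35.4 and 58.1. All 12 macrophage markers were called lower, with sums of 10578, 12494 and 12063 against 57002, 59057 and 53183. Among the 12 is Cx3cr1, whose reporter defined the populations, so that its direction was set by the sort. Mrc1 had the largest mean value, with 2932, 3689.8 and 3693 against 15485, 15884 and 15078, and no marker of either list was at 0 in a whole group. Unlike the epithelial sum, these sums were nearly even among the 3 CX3CR1- libraries. The part of the fibroblast and dendritic cell transcripts in the result was not tested.

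**Figure D3:**
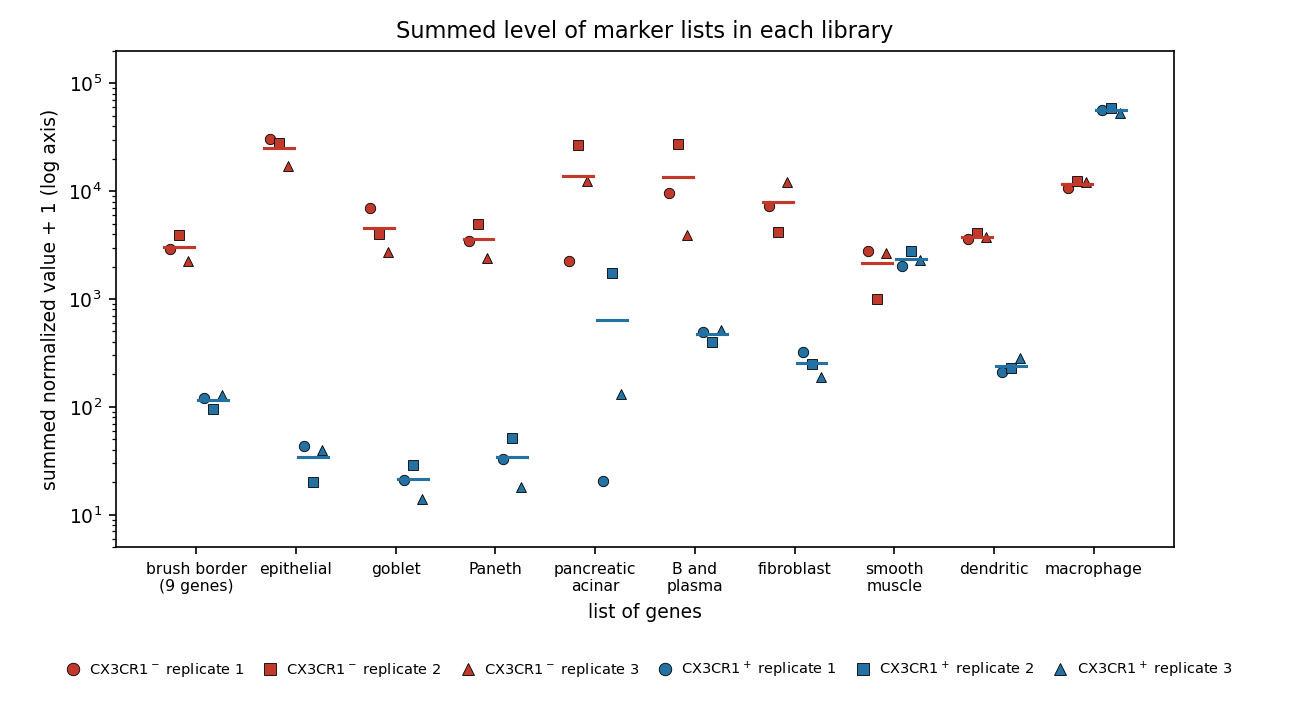
Summed normalized value plus 1 of the 9 brush border genes and of marker lists in each library, on a log axis; each point is a library, and each bar is the mean of the 3 libraries of a population. The epithelial sums lie between 17185 and 30426 in CX3CR1- and between 19.2 and 42.7 in CX3CR1+ libraries, whereas the macrophage sums are higher in CX3CR1+ libraries.

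The genes whose pattern was most like that of the brush border genes were sought by Pearson's r over the 6 libraries, against the mean profile of Anpep, Mgam, Alpi and Slc5a1, the 4 with a mean of at least 50. Among 17804 other tested genes, the closest were Klri2 with r = 0.9992, Cd2 with 0.9990, Pkp3 with 0.9988, C77080 with 0.9988 and Cd209d with 0.9985. With 3 libraries a group, any gene with an even difference between the groups comes close to 1, and 174 genes (0.977%) reached 0.99. Klri2 was at 213, 249 and 143 in the CX3CR1- and 10.6, 9.84 and 15.6 in the CX3CR1+ libraries, and Cd2, a receptor of lymphocytes and some dendritic cells, at 159.7, 205 and 128 against 1.34, 0.775 and 2.05. Over the 3 CX3CR1- libraries alone the closest were Lhpp, Gm16286, Gm8186, Zfp513 and Slc1a4, which describes 3 points only. Gm16286 was higher in CX3CR1+ cells, and Lhpp, Gm8186, Zfp513 and Slc1a4 were not called.

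Promoters are shown for 4 of the genes, because they carry letters that factors of the enterocyte programme are known to bind. In the 250 bases before the start of each gene, from RefSeq for GRCm38.p6, all 9 genes matched by symbol and were searched on both strands. The letters were chosen after the sequences had been seen, and do not overlap each other in these promoters. CAAAGTCCA, a core of sites for HNF4, was found in 1 of the 9, Alpi, 19 to 11 bases before the start, and in 0.384% of all 32851 promoters. TTTATNG, known for CDX factors, was found in 2 of the 9, 33 to 27 bases before Alpi and, as CAATAAA on the other strand, 52 to 46 bases before Sis, and in 9.81% of all. AGATAA, known for GATA factors, was found in 2 of the 9, 90 to 85 bases before Lct and, as TTATCT on the other strand, 101 to 96 bases before Lct and 208 to 203 and 66 to 61 bases before Mgam, and in 9.99% of all. A match is a description of letters, and binding was not measured.

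In the stretches below, read 5′ to 3′ on the strand of the gene, capitals mark these letters on either strand. They lie upstream of the transcription start, outside exons, at chr1:87101617-87101686 for Alpi (minus strand), chr1:128328339-128328448 for Lct (minus strand), chr6:40628621-40628800 for Mgam (plus strand) and chr3:72967894-72967963 for Sis (minus strand).
Alpi: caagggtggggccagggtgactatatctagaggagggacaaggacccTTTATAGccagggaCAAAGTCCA
Lct: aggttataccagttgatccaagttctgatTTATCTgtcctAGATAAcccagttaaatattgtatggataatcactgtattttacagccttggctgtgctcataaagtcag
Mgam: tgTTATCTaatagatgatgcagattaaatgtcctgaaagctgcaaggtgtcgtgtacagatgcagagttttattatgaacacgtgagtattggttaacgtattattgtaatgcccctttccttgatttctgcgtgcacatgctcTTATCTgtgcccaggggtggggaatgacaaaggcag
Sis: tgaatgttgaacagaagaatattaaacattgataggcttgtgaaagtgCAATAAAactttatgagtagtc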

How the data were processed

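RNA was turned into libraries with the TruSeq RNA v2 kit, and the authors mapped reads with Kallisto to the GENCODE M16 transcriptome of mm10, summed them per gene with tximport and normalized with DESeq2. The deposited signal was taken as normalized estimated counts, and 43.9% to 45.9% of the values of a library lay within 0.02 of whole multiples of its smallest step, from which the read numbers and the level of 3 reads were worked out. The table lists 26110 genes, 23 symbols appear more than once, and 37 are mitochondrial. Values were taken as log2(value + 1) without further scaling, and limma with a trend and Benjamini-Hochberg adjustment compared the groups by label, for genes with a mean of at least 10. Folds against a group with all libraries at or under the level of 3 reads were given as lower bounds, the CX3CR1- mean over the mean of the CX3CR1+ levels of 3 reads. Software was python 3.11.15, R 4.3.3, limma 3.58.1, pandas 2.3.3, numpy 2.4.6, scipy 1.17.1 and matplotlib 3.10.9. Transcript lengths and shared 31-mers came from GENCODE M21, since M16 was not at hand.

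The brush border genes and all lists were chosen with earlier results of these data known, so no list was tested against chance. The plan had named a permutation test for the share of the 9 genes, which was left out for the same reason. Genes named within a list were mostly those with the smallest p in each direction and the one with the largest mean value over the 6 libraries. Known partners or relatives of the 9 genes picked for their function were also named, and so were some genes that did not follow their list. The lists were other brush border hydrolases, other apical nutrient and ion transporters, basolateral exporters, enterocyte transcription factors, relatives outside the brush border, microvillus scaffold, proximal and distal small intestine, and cell type markers. Not analysed here were Folh1, Lctl, Pdx1, Gsdmc2, Mmp7, Ascl2, S100a8, S100a9, Ly6g, Cpa3, Mcpt1, Mcpt2, Mcpt4, Tpsb2 and Fcer1a. Dpp4, Kit, Rbp2, Slc10a2, Slc46a1, Cybrd1, Slc40a1, Slc51a, Slc51b, Gata4 and Nr1h4 stand in 2 lists each. Some genes of the lists were counted with their list, and their own results are not reported.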

Additional observations from a re-analysis of the deposited data

How the results depend on the processing

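The alternatives were leaving out each library in turn, other cutoffs of the mean (none and 50), pseudocounts of 0.5 and 10, no intensity trend, median-of-ratios rescaling, quantile normalization, scaling to the non-mitochondrial total, library weights, a replicate block for adjacent library numbers, and, chosen after seeing the data, leaving out both replicates numbered 2. No log2 fold change of a brush border gene and no difference in their share turned its direction under an alternative. With a mean of at least 50, 4 brush border genes were called higher, 1232 of all genes, 6 hydrolases, 1 apical carrier, 2 exporters, 4 transcription factors, 3 proximal and 3 distal genes. Without a cutoff, 2 relatives were called higher. With the replicate block, and also with median-of-ratios rescaling and a pseudocount of 10, 5 exporters and 6 distal genes were called higher. Scaling to the non-mitochondrial total gave 5 exporters and 7 distal genes. Otherwise 7 or 8 brush border genes were called higher. Slc2a2 reached 2.98 with library weights (limma, adjusted p = 0.0422) ranged from 2.04 to 3.70 with single libraries left out, and from 1.56 over all settings. The log2 fold change over all settings was 4.26 to 8.50 for Alpi, 4.13 to 4.64 for Anpep, 2.75 to 6.23 for Lct, 4.91 to 7.11 for Mgam, 3.00 to 5.48 for Sis, 1.84 to 2.496 for Slc15a1 and 3.90 to 8.12 for Slc5a1. The largest adjusted p among these 7 was 0.0123 (limma, Slc15a1). The difference in the share of the total, 0.0242%, was 0.0509% of the non-mitochondrial total and 0.00923% without Anpep. The replicate block called 7 brush border genes, 2165 of all genes higher and 1445 lower, and without both replicates 2 these were 1780 higher and 1086 lower. With 3 libraries a group, of pooled mice and unknown independence, animals cannot be told apart from libraries. The data are RNA levels of whole sorted populations, without protein or single-cell measurements, and which cells held the brush border transcripts was not tested.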

Other observations

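Less abundant cells of the gut wall were also seen unevenly beside the brush border genes. Of 6 tested markers of enteroendocrine and tuft cells 4 were called higher, with sums of 459, 709 and 696 in the CX3CR1- and 66.9, 71.7 and 31.7 in the CX3CR1+ libraries, Chgb the largest by mean value and Sct at 0 in every CX3CR1+ library. Of 3 tested markers of crypt stem cells 2 were called higher, with sums of 347, 244 and 622 against 28.9, 47.7 and 33.9, Smoc2 the largest by mean value and Olfm4 at 0 in every CX3CR1+ library. Of 9 markers of T cells and intraepithelial lymphocytes, 3 were tested and 2 were called higher. The sums were 128, 99.9 and 345 against 28.9, 16.4 and 25.1. Gzma was the largest by mean value, and Gzma, Gzmb and Trac were at 0 in every CX3CR1+ library. A CX3CR1+ mean under 10 was found for 2 of the 6 tested enteroendocrine and tuft, 2 of the 3 stem cell and all 3 T cell markers. Among all tested genes with such a low CX3CR1+ mean, 49.4% were called higher. Lgr5, too low for the test, was at 9.61, 1.34 and 15.1 against 12.0, 9.69 and 11.0 and thus not higher in CX3CR1- cells. The stem cell sum was highest in CX3CR1- replicate 3 because of Smoc2, with 259.9, 131 and 525, whereas Axin2, with 52.2, 81.2 and 28.2, was lowest there, and the T cell sum was also highest in CX3CR1- replicate 3. Kit, the only listed mast cell marker and also a marker of interstitial cells of Cajal, was called higher, with 382, 133 and 532 against 40.3, 18.1 and 35.7.

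Of 6 endothelial markers 4 were called higher and 1 lower, with sums of 1615, 1195 and 1490.1 in the CX3CR1- and 709.5, 871 and 785 in the CX3CR1+ libraries and Pecam1 the largest by mean value. Of 8 tested markers of enteric neurons, glia and interstitial cells of Cajal 3 were called higher, with sums of 979.6, 300.1 and 1019 against 171, 155 and 161 and Kit the largest by mean value. Of 3 tested mesothelial markers 1 was called higher, Wt1, which was tested only because of its level in CX3CR1- cells. The mesothelial sums were 287, 37.1 and 74.4 against 41.2, 19.6 and 23.6, with Upk3b the largest by mean value. Among tested markers, 1 of the 6 endothelial, 3 of the 8 neuron, glia and interstitial cell and 2 of the 3 mesothelial had a CX3CR1+ mean under 10. Of 4 listed markers of monocytes and neutrophils 2 were called higher and 1 lower, with overlapping sums of 2092, 2971 and 1305 against 1398, 1830.0 and 1553 and Ccr2 the largest by mean value. Of 6 genes of antigen presentation and leukocytes 1 was called lower, with sums of 97985, 117333 and 98475 against 191313, 183157 and 179188 and Cd74 the largest by mean value. The part of all these cells in the level of the brush border genes was not tested.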
